A study of Mus musculus with 16 samples.

Results

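The epithelium of the pelvic urethra was compared with the epithelium of the hindgut in mouse embryos at E13.5, over all genes that were measured. Both regions were captured by laser from cresyl violet-stained frozen sections of wild-type male embryos of the outbred CD1 stock. Each region had 4 libraries from 4 embryos, and the embryo numbers in the sample names recur in both regions. The authors deposited 1 FPKM value per gene and region, a level scaled to transcript length and to the mapped fragments, so that no value of a single embryo was at hand. For this reason no difference below has a replicate check, a standard error or a p-value, and the depth is unknown.

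Genes were kept when their level reached 1 FPKM in either region, with short RNA features (names starting Mir, Snor, Scarna or Rnu) left out. This kept 12262 of 23234 features. Of the others, 726 were short RNA features, 107 of which reached the minimum, and 10246 lay below it. Fxyd1 at 1.00 FPKM in urethra and Trim6 at 1.00 FPKM in hindgut lay just inside the minimum, and Dhx58 and Vmn1r58 just outside it. The difference of a gene is log2(FPKM + 1) in urethra minus the same in hindgut, and a gene is called higher in a region where this difference reached 1, which is 2-fold on that scale. That is a rule of size and not of significance, and the added 1 FPKM makes it understate the ratio of low genes. Where a feature is listed at 0 no fold is given.

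In the embryo a septum divides the cloaca, a cavity lined by endoderm, into the hindgut behind and the urogenital sinus in front, and the urethra forms from the latter. The hindgut lining becomes a simple columnar epithelium of absorptive and mucus-secreting cells, under transcription factors of the Cdx and Hnf families. The urethral lining becomes layered, with a basal layer that carries the keratins Krt5 and Krt14 and the transcription factor Trp63, and in males androgen acts on it and on the tissue around it.

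Most genes differed little between the regions. Of the 12262 features kept, 483 (3.94%) were higher in urethra, 550 (4.49%) were higher in hindgut, and 11229 were within 2-fold. Those past the rule in either direction made up 8.42%. The median difference was 0.01 and the central 90% ran from -0.93 to 0.88 on the log2 scale. A difference of at least 2 was found for 101 features higher in urethra and 132 higher in hindgut, and one of at least 4 for 9 and 15. In the lower region, 225 of the 483 and 215 of the 550 stood below 1 FPKM. The share past the rule was lower at higher mean levels. Among features with a mean below 2 FPKM, 9.43% were higher in urethra versus 7.85% in hindgut, and at 100 FPKM or more 1.17% and 2.34%. The median difference went from 0.13 to -0.12 between these classes of level. Mmp11, at 28.6 FPKM in hindgut versus 58.3 in urethra, and Idi1, at 37.7 and 18.3, lay just inside the rule, and Zfp239 (1.17 and 3.34) and Mgst3 (106 and 52.8) just outside it.

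**Figure D1:**
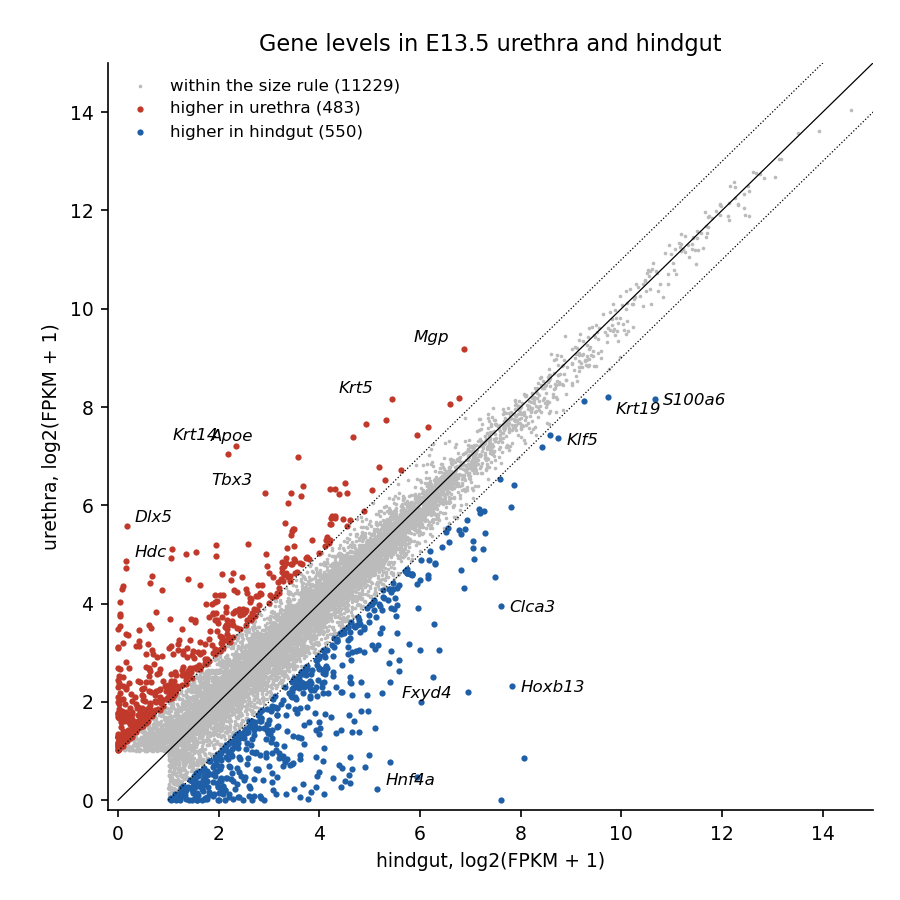
Level of each of the 12262 features kept in E13.5 hindgut (x axis) and urethra (y axis), as log2(FPKM + 1), 1 point per feature from the 1 deposited value per region. The solid line marks equal levels and the dotted lines the 2-fold size rule. Red points (483) are higher in urethra and blue points (550) higher in hindgut, and the points spread most at low levels.

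The levels of markers were set beside the labels of the regions first. The marker lists were chosen with earlier results of these data known, so their counts are no independent check of the labels. Of 15 hindgut markers, 13 reached the minimum and all 13 were higher in hindgut, with summed levels of 658 FPKM against 13.5 in urethra. Defining genes with values below the minimum in both regions were Cdx2 listed at 0 in hindgut with 0.0249 FPKM in urethra and Muc13 at 0.294 and 0.458 FPKM. A listed 0 can be a failed estimate, so a lack of Cdx2 RNA in hindgut cannot be read from it. Of 19 urethra markers, 18 reached the minimum, 11 were higher in urethra while 1, Pparg, was higher in hindgut. The hindgut column was not free of basal keratin RNA, with Krt5 at 42.7 FPKM against 286 in urethra and Krt15 at 517 against 474. Markers of epithelium in general were all at the minimum (26 of 26), and their summed level was 4408 FPKM in hindgut versus 2619 in urethra. Of these, 5 were higher in hindgut versus 0 in urethra, Epcam stood at 377 and 235 FPKM and Cdh1 at 246 and 124, so the general epithelial signal had the direction of the hindgut genes below. Its part in any difference was not tested, and in tissue pieces fewer cells of a type and less RNA per cell cannot be told apart.

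Markers of other cell types differed as well. Of 21 macrophage markers 15 reached the minimum, 11 of them were higher in urethra, Cd14 in hindgut, and their summed level was 84.0 FPKM in urethra versus 13.6 in hindgut. Of defining genes, Csf1r was among the 11, at a modest 2.64 FPKM in urethra versus 0.0111 in hindgut. Ptprc was below the minimum in both regions, at 0.0602 and listed at 0. Globin and other blood markers summed to 105.2 FPKM in urethra versus 53.4 in hindgut. Mesenchyme markers, 23 of 27 at the minimum, summed to 222 FPKM in urethra versus 196 in hindgut, with 7 higher in urethra (Prrx2, Osr1, Postn, Prrx1, Hand2, Snai2 and Osr2) and 5 in hindgut (Lum, Tcf21, Thy1, Col1a2 and Col3a1). Neuron and neural crest markers summed to 51.0 FPKM in hindgut versus 16.1 in urethra, and Ednrb alone gave 30.5 FPKM of the hindgut sum. Foxd3 and Prph were listed at 0 in both regions and Sox10 stood at 0.076 FPKM in hindgut. The skeletal muscle genes Myod1, Myf5, Myog and Ckm were listed at 0 in both regions, while Tnni1, the 1 member at the minimum, stood at 2.97 FPKM in hindgut and at 0.215 in urethra. The mesothelial gene Wt1 was listed at 0 in both regions. All 3 mesothelium markers at the minimum were called, Msln (3.79 FPKM against 0.463 in urethra) and Krt19 higher in hindgut, and Upk1b higher in urethra.

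The leading hindgut genes span transcription factors, ion transport and the secretory route. Fxyd4, a small regulator of the sodium pump in colon and kidney, stood at 123 FPKM in hindgut versus 3.61 in urethra, a difference of -4.75 on the log2 scale. Kcne3, a subunit of the potassium channel that serves chloride secretion, stood at 24.1 and 0.551 FPKM. Ednrb, a receptor for endothelins that is also a neural crest gene, had 30.5 and 0.888 FPKM. Sgpp2, a phosphatase of sphingosine phosphate, had 23.3 and 0.831 FPKM, and Nupr1, a small stress-induced chromatin protein, 20.0 and 0.646. Fgfr4, a receptor for fibroblast growth factors, had 14.2 FPKM in hindgut versus 0.199 in urethra. All of these levels in urethra were below 4 FPKM.

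Several less familiar genes stood in the same group. The uncharacterised transcript 2610528A11Rik had 60.4 FPKM in hindgut versus 0.383 in urethra, Tmem45b 21.8 and 0.303, and Tmem171 16.1 and 0.0899. Oit1 had 64.1 and 2.99 FPKM, and the kinesin gene Kif12 20.9 and 0.568. Serpinb1a, an inhibitor of neutrophil proteases, had 11.2 and 0.0413 FPKM, Tfec, a transcription factor of the Mitf family, 15.0 and 0.482, and Gna14, a G protein subunit, 10.3 and 0.169. The widest difference of the features kept belonged to DQ267100, at 194 FPKM in hindgut and listed at 0 in urethra, but its span is shared with other features, so its reads may not be its own.

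Transcription factors were among the leading genes on the urethra side as well. Of the 30 leading urethra genes, 7 were in the list of urogenital transcription factors and 5 in the macrophage list. On the hindgut side, 5 of the 30 were in the list of gut transcription factors. Dlx5, a homeobox factor of genital and limb outgrowth, stood at 46.9 FPKM in urethra versus 0.126 in hindgut, a difference of 5.41. Msx2, a homeobox target of BMP signals, had 19.4 and 0.0769 FPKM. Unc5c, a netrin receptor, had 33.4 FPKM in urethra versus 1.10 in hindgut, and the chemokine gene Cxcl14 22.5 and 0.604. Sp6, a zinc finger factor of tooth and skin epithelium, had 18.4 and 0.837 FPKM. Lix1 (9.24 and 0.14), Fhl1, a LIM domain protein (21.6 and 1.62), and Lrrn3, a leucine-rich repeat membrane protein (13.2 and 0.675), were the other leading genes of known protein class described here. Sepp1, the plasma selenium carrier selenoprotein P, had 30.2 FPKM in urethra versus 2.85 in hindgut.

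Apoe, a lipid carrier that macrophages make in quantity, stood at 131 FPKM in urethra versus 3.52 in hindgut. Beside it, the macrophage genes Tyrobp (20.3 and 0.55), C1qc (10.7 and 0.0255), Fcer1g (9.44 and 0.117), C1qb (7.60 and listed at 0) and Lyz2 (10.8 and 0.537) were among the leading genes. The part of macrophages in the level of Apoe, Sepp1 and other urethra genes was not tested. Of the other apolipoproteins, Apoa1 had 5.21 FPKM in urethra versus 0.561 in hindgut, and Apoc1 104 and 48.2.

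**Figure D2:**
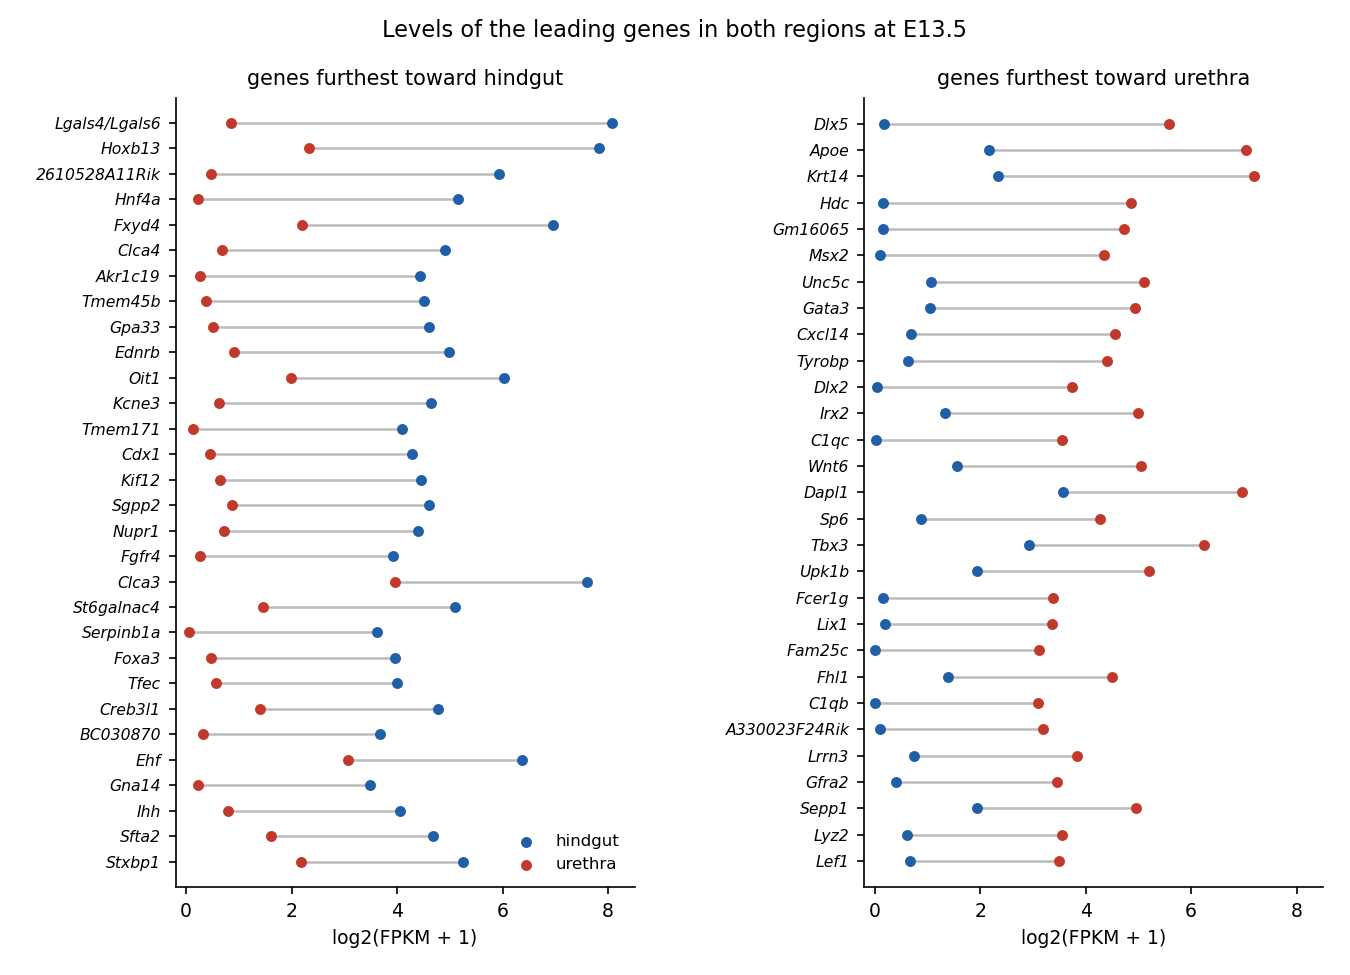
Levels of the leading genes in each direction, 1 row per gene, on a log2(FPKM + 1) axis, with a red point for urethra and a blue point for hindgut, each the 1 deposited value of that region. The genes have at least 5 FPKM in the higher region and a locus span of their own, and are ordered by difference, from Dlx5 (5.41) in urethra and the joint feature Lgals4,Lgals6 (-7.22) in hindgut. Other joint features carry their first name.

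The DNA at the start sites of called genes was compared with that of the other genes. Of 10163 kept features with a span of their own, 7992 matched a RefSeq promoter window of GRCm38.p6, which holds 250 bases before and 50 after the annotated start. An annotated start could lie inside the span of its feature. CpG dinucleotides, where mammalian DNA is methylated, are depleted in most of the genome and kept in the promoters of widely used genes. The CpG ratio of a window is the number of CpG over the number its C and G content gives. The median ratio was 0.56 for the 290 windows of genes higher in urethra, 0.55 for the 329 higher in hindgut and 0.79 for the 7373 within the rule. A ratio of at least 0.6 was found in 45.2%, 45.3% and 77.9% of these windows, and in 75.3% of all. Genes with a difference of at least 2 had it in 41.9% of 62 windows on the urethra side and 34.7% of 75 on the hindgut side. Called genes had lower levels than others, so the share was taken within classes of level. At a mean of 10 to 20 FPKM it was 63.0% for urethra, 60.3% for hindgut and 83.3% within the rule, and at 50 FPKM or more 33.3% of 12 windows, 30.0% of 20 and 84.7% of 932. In all 6 classes of level both called groups had the lower share.

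The windows below show the range among leading genes. They run 5′ to 3′ on the strand of the gene with CpG dinucleotides in capitals, and the annotated start is base 251 of each. Hnf4a, the nuclear receptor of gut epithelium (34.5 FPKM in hindgut versus 0.163 in urethra), starts from chr2:163546905-163547204 on the plus strand with 4 CpG. Fxyd4 lies in chr6:117937286-117937585 on the minus strand, with 5 CpG. For the basal keratin gene Krt14 (146 FPKM in urethra versus 4.04 in hindgut) the window is chr11:100205981-100206280 on the minus strand, with 5 CpG. Its annotated start lies inside the span of the feature, chr11:100203162-100207510. This window may therefore hold sequence from within the gene and not its main promoter. Gata3, a zinc finger factor of the nephric duct and other epithelia (29.5 and 1.08 FPKM), lies in chr2:9878551-9878850 on the minus strand, with 22 CpG.
Hnf4a: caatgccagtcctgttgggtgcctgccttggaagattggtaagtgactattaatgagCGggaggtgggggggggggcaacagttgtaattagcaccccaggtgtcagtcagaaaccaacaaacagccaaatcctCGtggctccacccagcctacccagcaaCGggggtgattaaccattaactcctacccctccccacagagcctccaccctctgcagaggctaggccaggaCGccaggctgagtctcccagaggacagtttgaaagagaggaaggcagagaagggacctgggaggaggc
Fxyd4: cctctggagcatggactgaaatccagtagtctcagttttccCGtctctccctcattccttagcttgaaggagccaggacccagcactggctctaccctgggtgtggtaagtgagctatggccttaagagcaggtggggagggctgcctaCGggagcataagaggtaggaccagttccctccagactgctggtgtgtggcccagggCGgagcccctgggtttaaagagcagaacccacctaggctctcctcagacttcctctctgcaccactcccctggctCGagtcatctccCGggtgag
Krt14: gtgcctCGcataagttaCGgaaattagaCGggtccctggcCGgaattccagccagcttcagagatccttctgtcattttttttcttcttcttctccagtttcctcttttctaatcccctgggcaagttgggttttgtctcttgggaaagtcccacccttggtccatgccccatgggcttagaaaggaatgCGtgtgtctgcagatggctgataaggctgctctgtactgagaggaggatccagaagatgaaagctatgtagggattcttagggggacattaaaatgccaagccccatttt
Gata3: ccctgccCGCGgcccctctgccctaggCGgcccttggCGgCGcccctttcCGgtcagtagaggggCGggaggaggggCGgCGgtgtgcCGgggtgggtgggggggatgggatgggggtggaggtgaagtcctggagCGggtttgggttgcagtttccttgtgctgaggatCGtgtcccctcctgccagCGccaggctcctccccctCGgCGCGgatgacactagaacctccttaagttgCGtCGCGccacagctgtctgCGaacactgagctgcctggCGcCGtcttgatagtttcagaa
The first 3 windows have CpG ratios of 0.16, 0.19 and 0.29, and that of Gata3 has 0.66, so that the leading genes were not uniform.

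Short motifs were searched on both strands of the same windows, and not all of those searched are given here. The letters AAAGTCC, part of sites bound by Hnf4 factors, were in 7.60% of hindgut, 4.83% of urethra and 3.98% of all windows. TGTTTAC, bound by forkhead factors, was in 5.47%, 2.07% and 2.54%, but among hindgut genes with a difference of at least 2 it was in 2.67% of 75 windows. TAATTA, bound by homeodomain factors, was in 3.95% of hindgut, 5.86% of urethra and 2.53% of all windows, and at a difference of at least 2 in 8.00% of hindgut and 6.45% of urethra windows. TATAAA, the TATA box, was in 11.2%, 14.5% and 7.11%, and TTTATNG, bound by Cdx factors, in 7.90%, 11.7% and 6.72%. The last motif can overlap the reverse of TATAAA. Called genes have fewer CpG and so other letters to begin with, and a match is not a binding site.

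**Figure D3:**
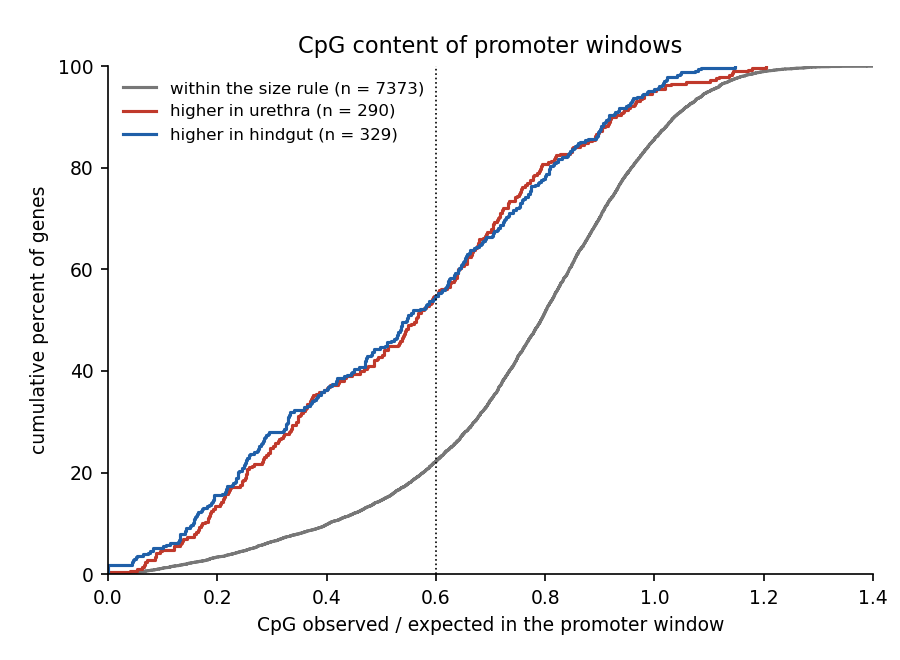
Cumulative percent of genes (y axis) up to each ratio of observed to expected CpG in the promoter window (x axis), for genes higher in E13.5 urethra (290), higher in hindgut (329) and within the size rule (7373). The dotted line marks a ratio of 0.6. The called groups have medians of 0.56 and 0.55 against 0.79 for the others, and their curves lie close together.

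The genes of each tissue function were then counted by list. All counts are to be read beside the shares of all features kept, 4.49% higher in hindgut and 3.94% in urethra. Among transcription factors of the gut, 33 of 47 reached the minimum, 17 were higher in hindgut versus 0 in urethra, with a median difference of -1.08. Hoxb13, the posterior Hox gene of colon and prostate, led at 227 FPKM in hindgut versus 4.04 in urethra. The intestinal homeobox gene Isx stood at 5.10 and 0.0573 FPKM, and Nr5a2, a nuclear receptor of gut crypts and bile acid synthesis, at 3.87 and 0.0172. Both were low in absolute terms beside Myb, a progenitor factor of colon crypts (12.9 and 4.23). The epithelial factors Ehf and Elf3 had 81.9 and 7.35 FPKM and 25.4 and 7.22 FPKM. Klf5, with 428 FPKM in hindgut versus 164 in urethra, was the most abundant of the 17.

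Of 65 urogenital transcription factors 47 reached the minimum, 24 were higher in urethra versus 2 in hindgut, and the median difference was 1.00. Iroquois homeobox genes stood higher in urethra at both of their clusters: Irx2 had 31.0 FPKM in urethra versus 1.53 in hindgut, Irx1 3.28 and listed at 0, Irx5 4.78 and 0.532, and Irx3 3.89 and 0.426. Dlx2 had 12.4 FPKM in urethra versus 0.0339 in hindgut, and Dlx3 11.8 and 1.74. Sall3, a zinc finger factor, had 8.47 and 0.336 FPKM, and Bnc1, a factor of basal keratinocytes, 3.93 and 0.121. Tfap2a, a factor of surface ectoderm, had 27.8 and 8.52 FPKM, and Eya1, a transcriptional cofactor of kidney and genital development, 3.60 and 0.582. The 2 members higher in hindgut were Sox21, at 32.1 FPKM against 7.93, and Sall4, at 32.9 against 15.8. Hand2 is also among the mesenchyme markers, which summed to 222 FPKM in urethra and to 196 in hindgut, and the part of mesenchyme in the list was not tested.

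**Figure D4:**
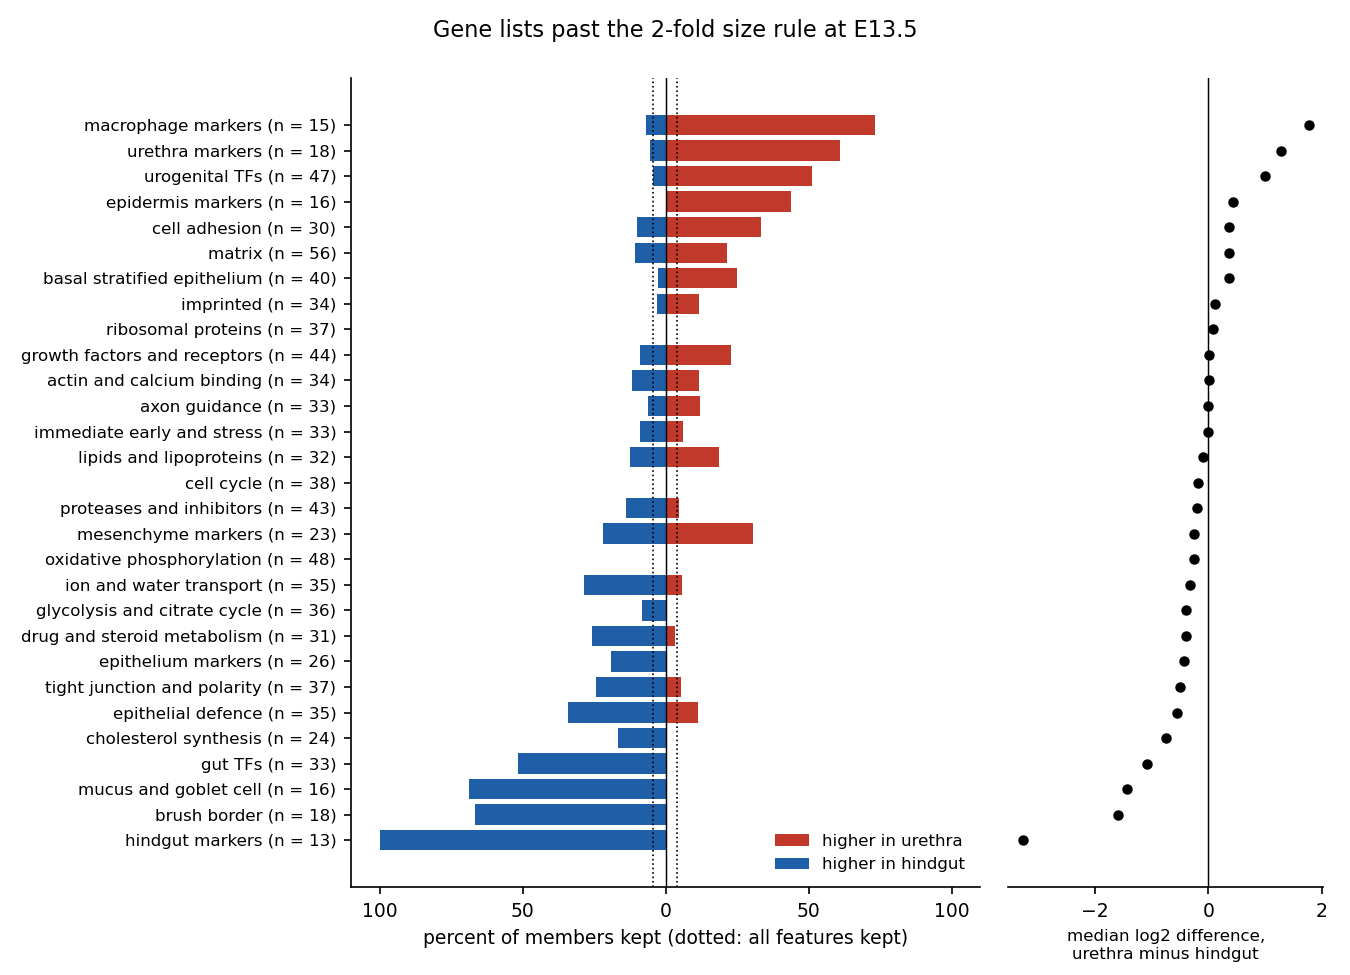
Share of the kept members of each gene list that were higher in urethra (red, to the right) or in hindgut (blue, to the left), with the shares of all 12262 features as dotted lines (3.94% and 4.49%), and at right the median log2 difference of the kept members. TFs are transcription factors, n is the number of members kept, and lists with under 10 kept members are left out. Hindgut markers, brush border, mucus and gut transcription factors lie at one end and macrophage markers, urethra markers and urogenital transcription factors at the other.

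Genes of the absorptive surface were higher in hindgut. Of 32 brush border genes 18 reached the minimum, 12 of these were higher in hindgut versus 0 in urethra, and all 18 differences were below 0, with a median of -1.58. Ush1c, the scaffold harmonin that links microvilli, stood at 6.2 FPKM in hindgut versus 0.0269 in urethra. The peptidases Dpp4 (4.89 and 0.659) and Anpep (20.7 and 5.74) differed less. Cdh17, the cadherin of the intestine, had 3.62 and 0.0512 FPKM, and Krt19, a keratin of simple epithelia, 846 and 293. In urethra the lowest of these named levels were near 0, and that of Krt19 was high in both regions.

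Genes of mucus and goblet cells had 16 of 30 members at the minimum, with 11 higher in hindgut, 0 in urethra and a median of -1.44. Clca3, a secreted product of goblet cells, had 193 FPKM in hindgut versus 14.5 in urethra. Creb3l1, a transcription factor released from the endoplasmic reticulum, had 26.5 and 1.63 FPKM, and Tff3, a trefoil peptide of goblet cells, 19.2 and 1.59. Galnt12, which starts mucin O-glycans, had 6.84 and 1.57 FPKM, and the fucosyltransferase gene Fut2 3.25 and 0.21. Spdef, a goblet cell transcription factor, stood at 1.89 and 0.202 FPKM, and Ern2, the stress sensor of mucous cells, at 1.08 and 0.00477. Apart from Clca3, Creb3l1 and Tff3, the members past the rule were below 7 FPKM in hindgut.

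Transport genes stood higher in hindgut in part. Of 60 ion and water transport genes 35 reached the minimum, 10 were higher in hindgut versus 2 in urethra. Clca4 had 28.9 FPKM in hindgut versus 0.596 in urethra, the chloride channel gene Ano1 14.2 and 0.832, and the carbonic anhydrase gene Car2 61.3 and 13.9. Atp1b1, a subunit of the sodium pump, stood at 224 and 61.2 FPKM, but shares its span with another feature. The 2 members higher in urethra were Scnn1g, a subunit of the epithelial sodium channel, at 2.61 FPKM against 0.487, and Car4 at 1.46 against 0.0732. By symbol, 23 potassium channel genes were kept, with 8 higher in hindgut versus 2 in urethra. Of 203 solute carriers kept, 13 (6.4%) were higher in hindgut and 6 (2.96%) in urethra, close to the shares of all features. Slc7a8, an amino acid carrier, had 11.3 FPKM in hindgut versus 0.786 in urethra, Slc44a4, a choline carrier, 4.23 and 0.0447, and the glucose carrier gene Slc5a1 4.12 and 0.248. Higher in urethra were the peptide carrier gene Slc15a2 (14.9 and 2.34), the iron exporter gene Slc40a1 (15.0 and 2.67) and Slc27a2, of fatty acid uptake (5.41 and 0.533).

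Cholesterol synthesis genes lay on the hindgut side throughout. All 24 members reached the minimum and all 24 differences were below 0, with a median of -0.74, while 48.3% of all kept features were below 0. Only 4 passed the rule, all higher in hindgut: Stard4, a sterol carrier (11.1 FPKM in hindgut versus 3.88 in urethra), Insig1, the sterol-regulated anchor of Srebp (19.3 and 8.42), Sc4mol, a sterol oxidase (31.7 and 15.0), and Idi1, an isomerase of the pathway (37.7 and 18.3). Lipoprotein and fatty acid genes were mixed, with 6 of 32 higher in urethra versus 4 in hindgut, beside 3.94% and 4.49% of all features.

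Among 36 kept genes of glycolysis and the citrate cycle, 3 were higher in hindgut, 0 in urethra, and the median was -0.38. The shares of all features kept were 4.49% and 3.94%, so counts this small are no clear excess or deficit. These were Fbp2, a fructose bisphosphatase (27.5 and 2.52 FPKM), and the aldolases Aldoc (16.7 and 5.46) and Aldoa (609.6 and 279). Genes of drug and steroid metabolism had 8 of 31 higher in hindgut versus 1 in urethra. Akr1c19 led at 20.5 FPKM in hindgut versus 0.2 in urethra, and the quinone reductase gene Nqo1 had 11.3 and 0.898. The Akr1c genes are near-identical copies, so reads may have been split among them. Core cellular functions held no called gene: 0 of 48 genes of oxidative phosphorylation (median -0.25), 0 of 38 of the cell cycle (-0.18) and 0 of 76 ribosomal proteins by symbol (0.04) passed the rule in either direction. Of all features kept 8.42% did, but at a mean of 20 to 50 FPKM 1.73% were higher in urethra and 2.92% in hindgut. At 100 FPKM or more these shares were 1.17% and 2.34%. The lists were not matched for level, so the 0 counts are no clear deficit. Small differences still leaned to hindgut in some lists, where 48.3% of all kept features were below 0. That share is not matched for level. The median difference of all features went from 0.13 at a mean below 2 FPKM to -0.12 at 100 FPKM or more. The part of level in these leans was not tested. Below 0 were 39 of the 48, 31 of the 38 and 30 of the 36 glycolysis and citrate cycle genes. In the ribosomal protein list 17 of 37 were.

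Epithelial junctions differed by type. Of 37 kept genes of tight junctions and polarity 9 were higher in hindgut versus 2 in urethra, and of 11 claudins by symbol 6 and 1. For all features kept the shares were 4.49% in hindgut and 3.94% in urethra. Cldn7, a claudin of simple epithelia, had 342 FPKM in hindgut versus 144 in urethra, and Cldn8, a claudin of tight distal epithelia, 18.4 and 5.11. Cldn23 stood at 20.5 and 9.45 FPKM, and the polarity gene Crb3 at 37.7 and 16.6. Cldn1, the claudin of epidermis, was the reverse, at 6.06 FPKM in urethra versus 0.115 in hindgut. Cadherins and other adhesion genes had 10 of 30 higher in urethra versus 3 in hindgut. Pcdh7 stood at 19.7 FPKM in urethra versus 2.09 in hindgut, Cdh6 at 4.66 and 0.0671, Pcdh19 at 4.39 and 0.312, and Chl1, a neural adhesion molecule, at 7.28 and 1.28.

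Basal and stratified epithelium had 40 of 46 genes at the minimum, with 10 higher in urethra and 1, Cldn8, in hindgut. Krt5 stood at 286 FPKM in urethra versus 42.7 in hindgut, the hair and nail keratins Krt75 at 48.9 and 8.98 and Krt6a at 52.3 and 18.8, and Krt4, of moist stratified linings, at 11.7 and 1.89. Lypd3, a surface protein of upper layers, had 23.8 and 3.88 FPKM, and Pkp1, a desmosomal plakophilin, 16.8 and 5.86. Col17a1, the hemidesmosomal collagen, had 29.6 and 12.3 FPKM. The median of the list was 0.36, so most of its other members stood close in both regions. Epidermis and periderm markers, which share Krt5, Krt14, Krt6a and Cldn1 with it, had 7 of 16 higher in urethra versus 0 in hindgut. Lor, the cornified envelope protein loricrin, stood at 74.6 FPKM in urethra versus 22.3 in hindgut.

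Matrix genes were split. Of 56 kept, 12 were higher in urethra versus 6 in hindgut, with a median of 0.36, beside 3.94% and 4.49% of all features. Mgp, the calcification inhibitor matrix Gla protein, had 581 FPKM in urethra versus 116 in hindgut. The basement membrane collagens Col18a1 (44.8 and 10.2) and Col4a2 (29.7 and 12.5) and the cartilage collagen Col2a1 (44.6 and 10.1) were higher in urethra. Fibronectin (Fn1) was higher in hindgut, at 232 FPKM against 84.7, and so were Spock2, a testican (70.3 and 23.1), and Lum, a fibrillar proteoglycan of stroma (8.19 and 0.939). The fibroblast collagens Col1a2 (11.0 and 4.53) and Col3a1 (14.4 and 6.23) were on the hindgut side too, while Postn, also of fibroblasts, was at 13.1 FPKM in urethra versus 3.43 in hindgut.

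Among signalling genes, the endothelin receptors were called on opposite sides. Ednra stood at 23.5 FPKM in urethra versus 7.04 in hindgut, whereas Ednrb was higher in hindgut as given above, and their ligand gene Edn1 had 6.80 FPKM in hindgut versus 2.61 in urethra. Of 44 kept growth factor, chemokine and receptor genes, 10 were higher in urethra versus 4 in hindgut, beside 3.94% and 4.49% of all features. Ptn, the heparin-binding factor pleiotrophin, had 83.3 FPKM in urethra versus 11.8 in hindgut, and the platelet-derived growth factor gene Pdgfc 29.3 and 9.11. The epidermal growth factor receptor gene Egfr stood at 10.8 and 3.42 FPKM. Kit, the stem cell factor receptor, was higher in hindgut, at 28.6 FPKM against 7.11. Ihh, the hedgehog ligand of gut epithelium, had 15.7 FPKM in hindgut versus 0.739 in urethra. Insulin-like growth factor binding protein Igfbp5 was abundant in both, at 288 FPKM in urethra versus 108 in hindgut. Oxtr, the oxytocin receptor, had 5.44 FPKM in urethra versus 0.167 in hindgut.

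Of 35 kept genes of epithelial defence, a list that includes S100 genes, 12 were higher in hindgut versus 4 in urethra. The list of actin and calcium binding genes had 4 of 34 in each direction and a median of 0.01. Over all features kept, 3.94% were higher in urethra and 4.49% in hindgut. S100a6 was among the most abundant called genes, at 1628 FPKM in hindgut versus 287 in urethra. S100a14 had 132 and 34.2 FPKM and S100a16 122 and 51.1. By symbol, 6 of 10 kept S100 genes were higher in hindgut versus 0 in urethra. The flagellin receptor gene Tlr5 stood at 4.76 FPKM in hindgut versus 1.66 in urethra, and the complement regulator Cd55 at 10.9 and 4.23. In the list of immediate early and stress genes, Jun was higher in hindgut (152 and 33.7 FPKM), and Myc (31.6 and 14.9) and the small heat shock protein gene Hspb1 (265 and 96.1) were higher in urethra. Tetraspanins had 4 of 16 higher in hindgut, led by Tspan8 (53.8 and 8.08), a gene of gut epithelium.

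Imprinted genes, expressed from 1 parental allele, had 34 of 39 at the minimum, with 4 higher in urethra versus 1 in hindgut. The shares of all features were 3.94% and 4.49%, so the 1 in hindgut is no excess. Phlda2, the growth-restraining placental gene, stood at 76.8 FPKM in hindgut versus 11.0 in urethra. Zim1 (3.83 and 0.388) and Magel2 (2.13 and 0.0972) were higher in urethra, as were Mest (75.2 and 9.89) and Peg3 (87.0 and 21.7), whose spans are shared with other features.

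Some called genes lay next to one another. Counting each span once, the next feature kept on the chromosome was also higher in urethra for 57 of 463 genes (12.3%) higher in urethra, where 4.04% of all such features were. For hindgut this was 48 of 520 (9.23%), where 4.54% were. Neighbours include gene duplicates and, without strand, overlapping transcripts, and these parts were not told apart. The longest run, of 5 features, lay at chr5:118560719-119885218 on mm10 and held Med13l, AW549542, Tbx3, Gm16065 and Tbx5. Tbx3, a T-box repressor, stood at 75.1 FPKM in urethra versus 6.59 in hindgut, and Gm16065, a predicted gene beside it, at 25.6 and 0.117. Tbx5 had 1.63 FPKM in urethra versus 0.197 in hindgut, AW549542 3.38 and 0.39, and Med13l, a Mediator subunit, 8.70 and 3.64. The 3 hindgut runs of 4 were the Akr1c cluster at chr13:4191187-4279399, Igsf5, Bace2, Fam3b and Tmprss2 at chr16:96361757-97611195, and S100a1, S100a13, S100a14 and S100a16 at chr3:90511034-90543151. In 8 runs of 3 higher in urethra, examples were Krt75, Krt6a and Krt5, and C1qb, C1qc and C1qa.

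Long noncoding RNAs had 342 features kept, with 23 higher in urethra versus 11 in hindgut, a share in either direction of 9.94% against 8.35% for protein-coding genes. One is the host transcript A330023F24Rik, whose feature joins Mir29b-2 and Mir29c at chr1:195017399-195037908 and stood at 8.14 FPKM in urethra versus 0.0732 in hindgut. The 3p arms of its 2 microRNAs, as RefSeq gives them, have the same seed, bases 2 to 8, in capitals here. The seeds of their 5p arms differ.
mmu-miR-29b-3p: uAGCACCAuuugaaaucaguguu
mmu-miR-29c-3p: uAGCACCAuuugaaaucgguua
The mature microRNAs themselves were not measured, and the miR-29 family is known for targeting collagen transcripts. Across chromosomes the share higher in urethra ran from 2.54% of genes on chromosome 11 to 6.35% on chromosome 15, and that higher in hindgut from 3.20% on chromosome 12 to 6.07% on chromosome 1.

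The same direction was then looked up at E10.5, when the dorsal and ventral parts of the cloaca were captured from 4 other embryos of the same stock, sex and genotype. That table was normalized separately, so the difference within each age is set side by side, no level is compared across ages, and the minimum of 1 FPKM applies on each table's own scale. Of 12283 features kept there, 1280 (10.4%) were higher ventrally and 1157 (9.42%) dorsally. Of the 483 genes higher in urethra, 178 (36.9%) were higher ventrally at E10.5, 36 (7.45%) dorsally, 162 (33.5%) were within the rule and 107 (22.2%) below the minimum. The 178 are 13.9% of the ventral genes of E10.5. Of the 550 genes higher in hindgut, 131 (23.8%) were higher dorsally, 50 (9.09%) ventrally, 212 (38.5%) within the rule and 157 (28.5%) below the minimum. The 131 are 11.3% of the dorsal genes of E10.5. Of the ventral genes of E10.5, 65.0% were within the rule at E13.5, as were 65.1% of the dorsal genes. Over the 11417 features kept at both ages Pearson's r of the differences was 0.27 and Spearman's rho 0.18, as a description across genes, which are not independent.

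Some of the leading genes had the same direction at both ages. Hdc, which makes histamine, had 28.0 FPKM in urethra versus 0.116 in hindgut, and at E10.5 32.4 ventrally and 0.0163 dorsally. Wnt6 had 32.3 and 1.94 FPKM at E13.5 and 25.5 and 0.334 at E10.5, and Dapl1, an epithelial differentiation gene, 125 and 10.9 and then 49.9 and 1.13. On the other side, Clca3 had 198 FPKM dorsally and 8.05 ventrally at E10.5, and Foxa3, a forkhead factor of gut and liver, 14.5 and 0.396 FPKM at E13.5 and 5.39 and 0.454 at E10.5. In all, 144 genes with at least 5 FPKM in the higher region at both ages and a span of their own kept their direction, and 22 had the opposite one.

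The opposite genes include markers of stroma and of epithelium. Apoe was higher dorsally at E10.5, at 21.9 FPKM against 6.60 ventrally, and higher in urethra at E13.5. Postn stood at 28.7 FPKM dorsally and 1.52 ventrally at E10.5, and Frzb, a secreted Wnt antagonist, at 13.4 and 4.89, and at E13.5 at 5.35 in urethra versus 0.523 in hindgut. In the other direction, Ndrg1, a gene of differentiation and low oxygen, had 46.6 FPKM in hindgut versus 5.16 in urethra, but 5.08 ventrally and 0.459 dorsally at E10.5. Phlda2 had 17.5 FPKM ventrally and 3.44 dorsally at E10.5. Gas6, a ligand of Axl family receptors, had 10.3 and 3.24 there and 60.2 in hindgut against 20.1 in urethra at E13.5. Gpx2, the glutathione peroxidase of gut epithelium, stood at 111 FPKM in hindgut versus 41.8 in urethra, and at 2.22 dorsally and 7.10 ventrally at E10.5. Klf5 was also higher ventrally at E10.5, at 49.7 FPKM against 22.6.

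**Figure D5:**
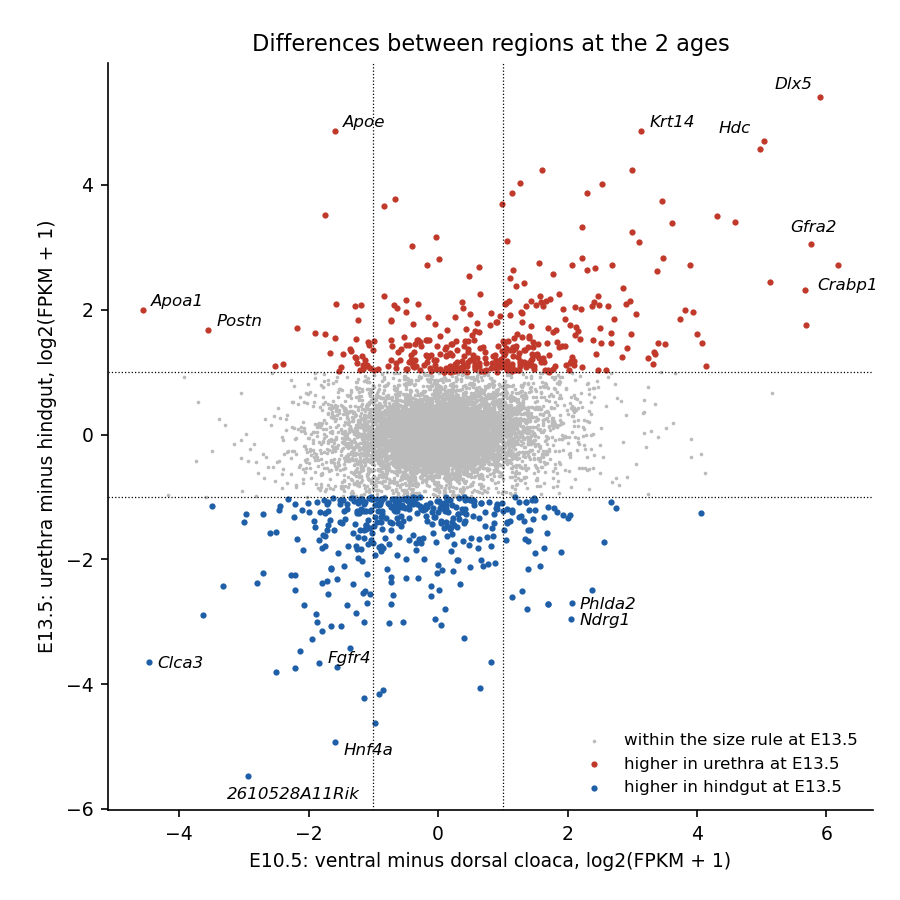
Difference between regions at E10.5 (x axis, ventral minus dorsal cloaca) and at E13.5 (y axis, urethra minus hindgut) for the 11417 features kept at both ages, in log2(FPKM + 1), 1 point per feature. Dotted lines mark the 2-fold size rule, and colours give the call at E13.5 (red urethra, blue hindgut). Most called points lie between the vertical lines or on the matching side, with Apoe, Apoa1, Postn, Ndrg1 and Phlda2 on the other side.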

How the data were processed

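RNA from 4 urethra and 4 hindgut libraries had been measured, and the authors deposited 1 FPKM value per gene and region, per the file headers, in 1 table per age with 23234 features. The submitters' processing notes name Cufflinks 2.2.1 and mm10. Not given in the sources used here are the aligner, annotation, strand, depth and how the 4 libraries were combined. Values of 0 can be failed estimates. Some 3801 features share a span with another, and their values are uncertain.

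From these, log2(FPKM + 1) differences were computed with Python 3.11.15, pandas 2.3.3 and numpy 2.4.6 over features with at least 1 FPKM in either region, with a size rule of 1 and no test. The planned fit on values per library could not be made. The counting was run on simulated data with planted changes well past the rule, in genes with a mean of at least 5 FPKM. That checks the computation only and says nothing about calls at lower levels. Alternatives were other pseudocounts, minimums and scalings, and leaving out shared spans. The members, the 37 lists and the 34 families by symbol were chosen with earlier results of these data known. Genes were named by a rule: the 30 with the largest difference per direction, up to 4 called per list, extremes per family, defining markers and called transcription factors. Others named, such as those with the same direction at both ages, Fgfr4 and Oxtr, were taken from the tables after their values were seen. A few genes under this rule are not reported here, nor drawn in the plot of leading genes.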

Additional observations from a re-analysis of the deposited data

How the results depend on the processing

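The numbers of features higher in urethra and hindgut, 483 and 550, depend most on the pseudocount. They were 831 and 803 with 0.1 FPKM, 149 and 213 with 5 FPKM, and 271 and 372 with a minimum of 5 FPKM. Upper-quartile scaling gave 506 and 534, quantile normalization 459 and 571, leaving out features with shared spans 422 and 474, and keeping short RNA features 515 and 568. The median of all features moved by less than 0.1 under both scalings. Differences were also recomputed for 399 genes, the leading genes and the called members of lists and families. Of these, 228 fell below the size rule with a pseudocount of 5, 14 under quantile normalization and 6 under upper-quartile scaling. None took the other sign, but a pseudocount cannot change a sign, and all 399 had been chosen for a difference past the rule. Genes named outside that set were not recomputed. With no minimum, list medians at least 0.1 from 0 took the other sign for lipids (0.0032), smooth muscle (-0.0249), endothelium (-0.0061) and mesothelium (0.0524). With a minimum of 5 FPKM they did for mesothelium (0.8635), mesenchyme (0.0025) and nephric duct (1.0374). No paired analysis was possible because each region has 1 pooled value per gene, and leaving out each embryo was not run for the same reason.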

Other observations

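Among other families, 6 of 74 kept histone genes (8.11%) were higher in hindgut versus 1 (1.35%) in urethra, with a median difference of -0.40. Of all features kept, 4.49% were higher in hindgut and 3.94% in urethra. Of 312 zinc finger genes named Zfp, 2 (0.64%) were higher in hindgut versus 4 (1.28%) in urethra, both below those shares. Foxj1, the regulator of motile cilia, stood at 6.70 FPKM in hindgut versus 0.828 in urethra, and Adamts17, a secreted metalloprotease, at 31.4 FPKM in urethra versus 6.67 in hindgut. Ins2, the insulin gene, stood at 5.52 FPKM in hindgut versus 0.344 in urethra. Pga5, a pepsinogen gene, had 5.46 FPKM in urethra and was listed at 0 in hindgut. Mt2, a metallothionein gene, had 199 FPKM in urethra versus 29.6 in hindgut. Ins2, Pga5 and Mt2 were chosen after their values were seen. The most abundant features of both regions were ribosomal protein genes, led by Rpl41 at 24104 FPKM in hindgut versus 16894 in urethra, a difference within the size rule.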
